A study of Mus musculus with 4 samples.

Results

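The glucocorticoid receptor gene Nr3c1 and 9 genes known to be raised by glucocorticoids (Fkbp5, Tsc22d3, Sgk1, Zbtb16, Klf9, Errfi1, Cdkn1a, Mt1 and Mt2) were followed in tissue lying beside Panc02 tumours in mouse pancreas. Each symbol matched 1 Ensembl gene, giving 10 of the 55401 genes in the deposited count table, and all 10 passed the filter on low counts. Panc02 cells are a mouse line of pancreatic ductal adenocarcinoma. RNA-seq was available from 2 libraries of wild-type animals (WT 1 and WT 2) and 2 libraries of animals with a conditional knockout of CRFR1, a receptor for corticotropin-releasing factor (CRFR1-KO 1 and CRFR1-KO 2). The series title places the receptor of interest in mast cells. All 4 libraries came from tumour-bearing mice. The Cre driver, strain, sex and age, and whether each library came from its own animal, were not given in the sources used here, so errors and p-values measure the spread between libraries, which may be technical. The genes were picked by name with the difference between the genotypes already known, so their genotype differences are given as a description and support nothing.

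Glucocorticoids are released by the adrenal cortex under the control of corticotropin-releasing factor and pituitary corticotropin. The unliganded receptor is held in the cytoplasm by HSP90 chaperones. After binding hormone it moves to the nucleus and acts on chromatin at palindromic response elements, raising genes such as those studied here and repressing many inflammatory genes. In the exocrine pancreas glucocorticoids are known to promote the synthesis and storage of digestive enzymes.

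Total counts lay between 63495457 and 71203640 per library. Levels are counts per 1000000 (CPM) on library sizes scaled by the trimmed mean of M values, and differences between genotypes are log2 fold changes, CRFR1-KO over WT, from edgeR's quasi-likelihood fit over 15131 genes. Crhr1, which encodes CRFR1, and Crh, which encodes its ligand, were at 0 counts in every library. If each count is a read, a count of 0 is compatible with 3 counts, or levels of 0.0363 to 0.048 CPM depending on the library. The knockout could thus not be checked from these counts. The labelled tissue showed its acinar markers, at a summed 315500 and 397600 CPM in the wild type and 430300 and 385100 CPM in the knockout. WT 1 stood apart, with the islet marker list at a summed 41.5 CPM against 239.3 to 296.8 CPM in the other 3 libraries.

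Markers of other cell types also differed between libraries. In these bulk samples, fewer cells of a type and less RNA per cell cannot be told apart. Of 9 fibroblast markers 8 were lower in the knockout, with summed levels of 490.9 and 231.5 CPM in the wild type and 163.0 and 185.3 CPM in the knockout. Their median log2 fold change was -0.76, and without WT 1 it was -0.42, with 7 of 9 lower. Without WT 2 it was -0.82, with 9 of 9 lower. Col3a1, the largest part of the WT 1 sum, stood at 207.4 and 59.3 CPM in the wild type against 52.1 and 57.8 CPM in the knockout. All 8 macrophage markers were lower (7 of 8 without WT 1), at a summed 118.6 and 86.7 CPM against 42.9 and 68.5 CPM. Of 7 duct markers 5 were lower, at a summed 273.2 and 189.4 CPM against 168.8 and 159.3 CPM, and 3 of them had an unadjusted p below 0.05, namely Spp1 (log2 fold change -1.17), Sox9 (-0.79) and Cftr (-2.46). All 12 acinar markers were higher, with a median log2 fold change of 0.25, but 11 of 12 on library totals or without CRFR1-KO 1 and 9 of 12 without WT 1. Adipocyte markers were scarce, at 13.8 and 11.7 CPM in the wild type and 10.7 and 12.8 CPM in CRFR1-KO, with Lep at 0 in all libraries and 3 of 9 markers tested. Lymphocyte markers summed to 1.86 to 2.83 CPM, with Cd3d and Ms4a1 at 0. Mast cell markers summed to 10.8 to 14.5 CPM, with 2 of 8 tested. Nearly all of that sum was Kit (10.7 to 14.0 CPM), the other tested marker, Cpa3, lay between 0.0611 and 0.528 CPM, and Cma1, Mcpt4, Tpsb2, Ms4a2 and Fcer1a were at 0. The part of these cell types in the levels of Fkbp5, Cdkn1a and the other induced genes described here was not tested.

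Over all tested genes 0.0264% passed the edgeR adjusted threshold of 0.05, and 4.86% had an unadjusted p under 0.05. Of the 10 genes 0 passed in edgeR, with 2 (Fkbp5 and Cdkn1a) at an unadjusted p under 0.05. The DESeq2 Wald test called 1 of them, Cdkn1a, where it called 0.375% of genes, and limma-voom called 0 of them and 0% of genes. Both CRFR1-KO libraries lay below both WT libraries for 2 of the 10, again Fkbp5 and Cdkn1a, against 16.9% of tested genes, and above them for 0, against 16.6%. Groups that did not overlap in either direction made up 33.5% of tested genes. For 9 of the 10 the difference between libraries of one genotype was wider than that between the genotype means on the log2(CPM + 0.5) scale, as it was for 78.1% of tested genes.

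**Figure D1:**
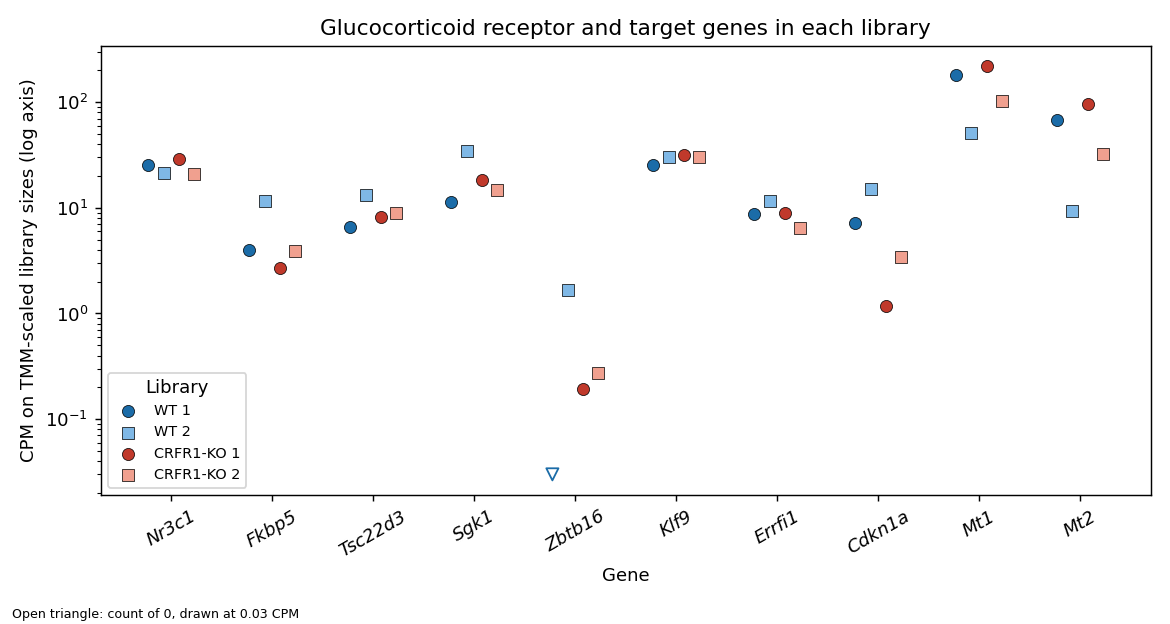
Level of each of the 10 genes in each library, as CPM on a log axis, with circles and squares for libraries 1 and 2 of each genotype. WT 2 holds the highest point for Fkbp5, Tsc22d3, Sgk1, Zbtb16, Errfi1 and Cdkn1a and the lowest for Mt1 and Mt2. The open triangle marks the count of 0 for Zbtb16 in WT 1.

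The receptor gene was detected in every library. Nr3c1 (ENSMUSG00000024431, chromosome 18) stood at 25.3 and 21.3 CPM in WT 1 and WT 2 and at 28.9 and 21.1 CPM in CRFR1-KO 1 and CRFR1-KO 2. The genotypes overlapped, and the highest library was 1.36-fold above the lowest on the log2(CPM + 0.5) scale. The log2 fold change was 0.10 (SE 0.21), between -0.14 and 0.32 with single libraries left out, and -0.06 on unscaled library totals, where the median of all genes moved from -0.006 to -0.133. Per kilobase of exon the receptor averaged 3.14 CPM over the 4 libraries, a level above that of 83.8% of tested genes. Among its targets, Mt1 (110.7 CPM per kilobase), Mt2 (87.4), Klf9 (6.09) and Sgk1 (4.03) stood higher on that scale. Errfi1 (2.505), Tsc22d3 (2.13), Cdkn1a (1.88), Fkbp5 (0.585) and Zbtb16 (0.102) stood lower.

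Chaperones and cofactors of the receptor differed in both directions. Hsp90ab1, a constitutive HSP90, stood at 105.4 and 110.3 CPM in the wild type and 111.6 and 95.0 CPM in the knockout (log2 fold change -0.06, SE 0.19). Fkbp4, an immunophilin that helps carry the receptor to the nucleus, stood at 39.3 and 42.0 CPM against 43.9 and 44.1 CPM (log2 fold change 0.11, SE 0.16). Of 12 tested chaperone genes 5 were higher and 7 lower, with a median log2 fold change of -0.04 (0.05 without WT 2 and 0.07 without CRFR1-KO 2) against -0.006 over all genes, and calls numbered 0 in edgeR (0 with an unadjusted p below 0.05), 0 in DESeq2 and 0 in limma-voom. The 3 with the smallest p were the HSP40 gene Dnajb1 (0.37), the constitutive HSP70 gene Hspa8 (-0.30) and the phosphatase gene Ppp5c (0.15). Of 11 tested coactivator and corepressor genes 5 were higher and 6 lower, with a median of -0.004, and calls numbered 0 in edgeR (1 with an unadjusted p below 0.05), 0 in DESeq2 and 0 in limma-voom. The genotypes did not overlap for 6 of the 11, 3 lower and 3 higher in the knockout, against 33.5% of tested genes. The gene with that unadjusted p was Med1, a Mediator subunit, at 5.01 and 5.94 CPM in the wild type and 8.78 and 8.37 CPM in the knockout (log2 fold change 0.65, SE 0.19). Nrip1, a corepressor, and Ncoa3, a coactivator, stood at -0.37 and -0.38 on the same scale.

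Of 15 listed genes of the hormone axis and of steroid synthesis, activation and transport, with the mineralocorticoid receptor gene among them, 7 passed the filter. Hsd11b1, whose enzyme regenerates active glucocorticoid inside cells, stood at 2.20 and 2.84 CPM in the wild type and 2.91 and 3.01 CPM in the knockout (log2 fold change 0.23, SE 0.27). Hsd11b2, whose enzyme inactivates the hormone, had a count of 0 in all 4 libraries, as did the steroid 11-beta-hydroxylase gene Cyp11b1. Nr3c2, the mineralocorticoid receptor that also binds glucocorticoids, stood at 4.14 and 3.10 CPM against 5.07 and 3.61 CPM (log2 fold change 0.26, SE 0.28). H6pd, which supplies the cofactor for Hsd11b1, stood at 12.3 and 6.85 CPM in the wild type and 5.30 and 6.13 CPM in the knockout (log2 fold change -0.75, SE 0.29). The drug efflux gene Abcb1b was at -0.63. Of the 7, 3 were higher and 4 lower, with a median of -0.19, and calls numbered 0 in edgeR (1, H6pd, with an unadjusted p below 0.05), 0 in DESeq2 and 0 in limma-voom. The median changed sign to 0.07 without WT 2, and to 0.23 in DESeq2 and with no filter, where 11 genes entered, and was -0.44 without CRFR1-KO 2 and -0.10 without WT 1.

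The classical targets Fkbp5, Tsc22d3, Sgk1 and Zbtb16 were all highest in WT 2. Fkbp5 (ENSMUSG00000024222, chromosome 17, 28399094 to 28517527, minus strand, GRCm38) encodes a cochaperone that lowers the receptor's affinity for hormone in a feedback loop. WT 1 had 4.004 CPM of it and WT 2 had 11.5 CPM, while CRFR1-KO 1 had 2.67 CPM and CRFR1-KO 2 had 3.94 CPM. WT 2 was thus 2.88-fold above the next library, while WT 1 and CRFR1-KO 2 nearly coincided. The log2 fold change was -1.23 (SE 0.48) with all libraries and -0.27 without WT 2. Without WT 1 it was -1.80, where edgeR placed Fkbp5 past the threshold (adjusted p = 0.0481, against 0.253% of genes called); over the other alternatives the adjusted p lay between 0.427 and 1.

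Tsc22d3 (ENSMUSG00000031431, chromosome X, 140539528 to 140600659, minus strand), also known as GILZ, encodes a leucine zipper protein through which glucocorticoids restrain inflammatory signalling. Its levels were 6.54 CPM in WT 1, 13.3 CPM in WT 2, 8.19 CPM in CRFR1-KO 1 and 8.91 CPM in CRFR1-KO 2. Both CRFR1-KO libraries lay between the WT libraries, and the log2 fold change of -0.21 (SE 0.32) became 0.39 without WT 2 and -0.64 without WT 1.

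Sgk1 (ENSMUSG00000019970, chromosome 10, 21882184 to 21999903, plus strand) encodes a kinase that promotes sodium transport and cell survival. Its levels were 11.5 CPM in WT 1, 34.4 CPM in WT 2, 18.2 CPM in CRFR1-KO 1 and 14.8 CPM in CRFR1-KO 2, so the CRFR1-KO libraries again lay between those of WT. The log2 fold change of -0.47 (SE 0.45) became 0.53 without WT 2 and -1.06 without WT 1. A gap as wide as that between the WT libraries was seen in 0.982% of the 10895 genes averaging at least 1 CPM.

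Zbtb16 (ENSMUSG00000066687, chromosome 9, 48654297 to 48836222, minus strand), also known as PLZF, encodes a zinc finger repressor that glucocorticoids raise steeply in many cells. WT 1 had 0 counts of it and WT 2 had 110, while CRFR1-KO 1 had 12 and CRFR1-KO 2 had 18. Against a limit of 3 counts in WT 1, WT 2 was at least 46.3-fold higher, provided that each count is a read, which is open. The log2 fold change was -1.83 (SE 1.64) in edgeR and 1.72 in limma-voom, so the direction between genotypes was not settled.

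Sgk1 was 1 of the 2 genes whose promoter windows held a full glucocorticoid response element, and its window is shown for that reason. RefSeq windows (GRCm38.p6, 250 bases before to 50 after an annotated start) were found for 8 of the 10 genes, 17 windows in all, 6 of them for Sgk1. The element searched was the arm GNACA, then 3 bases of any kind, then the arm TGTNC, which reads alike on both strands. It was found in 2 windows, 1 each of Sgk1 and Mt1, while 0.47% of all 32851 windows and 0.54% of all 27025 genes with a window held it. With any 1 fixed letter left free, 3 of the 8 genes had a match, against 10.78% of all genes. A match is a description of these letters and not a measured binding site.

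The 250 bases before an internal Sgk1 start follow, at chr10:21993640-21993889 on the plus strand of GRCm38.p6, with the element in capitals. They lie in no annotated exon, and the element ends 952 bases before the next Sgk1 start, at 21994666.
Sgk1: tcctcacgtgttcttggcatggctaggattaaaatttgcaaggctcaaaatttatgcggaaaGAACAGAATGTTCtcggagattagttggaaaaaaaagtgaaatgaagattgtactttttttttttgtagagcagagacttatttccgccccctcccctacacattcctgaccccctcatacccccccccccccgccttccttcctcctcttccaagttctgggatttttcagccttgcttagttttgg

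Klf9 and Errfi1 varied least among the targets. Klf9 (ENSMUSG00000033863), a Kruppel-like factor that is itself a transcriptional repressor, stood at 25.3 and 30.5 CPM in the wild type and 31.5 and 30.0 CPM in CRFR1-KO, with overlapping genotypes and a log2 fold change of 0.14 (SE 0.17), which was 0.01 without WT 1 and 0.28 without WT 2. Its highest library was 1.24-fold above its lowest, a range that 75.4% of genes averaging at least 1 CPM matched or exceeded. Errfi1 (ENSMUSG00000028967), an inhibitor of the epidermal growth factor receptor, stood at 8.71 and 11.7 CPM in the wild type and 9.02 and 6.49 CPM in the knockout. CRFR1-KO 1 lay between the WT libraries, and the log2 fold change was -0.39 (SE 0.24). It was -0.16 without WT 2, -0.17 without CRFR1-KO 2, -0.59 without WT 1 and -0.65 without CRFR1-KO 1.

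With all 4 libraries, Cdkn1a had the largest log2 fold change of the 10 genes, and without WT 1 those of Zbtb16 (-2.83) and Mt2 (2.80) exceeded its own (-2.70). The gene (ENSMUSG00000023067, chromosome 17, 29090976 to 29100727, plus strand) encodes p21, an inhibitor of cyclin-dependent kinases raised by p53 and also by glucocorticoids. WT 1 had 595 counts of it and WT 2 had 977, while CRFR1-KO 1 had 74 and CRFR1-KO 2 had 223, or 7.20, 14.9, 1.18 and 3.41 CPM. The groups did not overlap, although the libraries of a genotype also differed, by 2.07-fold in the wild type and 2.88-fold in the knockout. The log2 fold change was -2.26 (SE 0.53) and lay between -3.21 and -1.64 when single libraries were left out. Cdkn1a missed the edgeR threshold (adjusted p = 0.718) and passed that of DESeq2 (adjusted p = 0.000365), and with single libraries left out the edgeR adjusted p lay between 0.082 (without WT 1) and 1 (without CRFR1-KO 2). AC167363.2, which overlaps 273 exon bases of Cdkn1a on the opposite strand, had 0 to 9 counts per library.

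Other p53 targets lay on both sides of 0. Mdm2, the negative regulator of p53, stood at 9.59 and 10.8 CPM in the wild type and 11.2 and 10.6 CPM in the knockout (log2 fold change 0.09, SE 0.17). Of 11 genes tested (Trp53 and 10 targets) 6 were higher and 5 lower, with a median of 0.09 (-0.11 without WT 2 and -0.03 on library totals), and calls numbered 0 in edgeR (1 with an unadjusted p below 0.05), 0 in DESeq2 and 0 in limma-voom. That gene was Trp53inp1, a p53-induced stress gene, at -0.51 (SE 0.17). Trp53 itself was at 0.38 (SE 0.33) and the cyclin gene Ccng1 at 0.17 (SE 0.17).

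The metallothionein genes Mt1 and Mt2 were lowest in WT 2, the library in which the classical targets were highest. They encode small cysteine-rich proteins that bind zinc and copper, and both metals and glucocorticoids are known to raise them. Mt1 (ENSMUSG00000031765, chromosome 8, 94179082 to 94180327, plus strand) stood at 179.5 CPM in WT 1, 51.6 CPM in WT 2, 218.4 CPM in CRFR1-KO 1 and 102.1 CPM in CRFR1-KO 2. Mt2 (ENSMUSG00000031762, chromosome 8, 94172664 to 94173568, plus strand) stood at 67.3 CPM in WT 1, 9.24 CPM in WT 2, 96.6 CPM in CRFR1-KO 1 and 32.3 CPM in CRFR1-KO 2. Both genes thus had the order WT 2, CRFR1-KO 2, WT 1, CRFR1-KO 1 from low to high, and neither separated the genotypes.

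Mt2 varied more than Mt1. Counts of Mt1 were 5.58 times those of Mt2 in WT 2 and between 2.26 and 3.16 times in the other 3 libraries. WT 1 exceeded WT 2 by 7.28-fold for Mt2 and 3.48-fold for Mt1, and gaps as wide between the WT libraries were seen in 0.202% and 0.615% of genes averaging at least 1 CPM. Log2 fold changes between genotypes were 0.47 (SE 0.57) for Mt1 and 0.75 (SE 0.84) for Mt2. Without WT 2 they were -0.16 and -0.06, and without WT 1 they were 1.64 and 2.80. Per kilobase of exon, Mt1 averaged 110.7 CPM and Mt2 87.4 CPM over the 4 libraries, the highest levels among the 10 genes. The exon length used for Mt1, 1246 bases, equals its whole gene span, while that of Mt2, 588 bases, does not. The values of Mt1 and Mt2 are therefore not on a like scale.

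The metallothionein genes lie 5513 bp apart on the same strand, and their upstream sequences are shown because both genes had the same order of libraries. The metal response element core searched was TGCNCNC on either strand. It matched 3 times in the Mt1 window and 6 times in the Mt2 window, with no overlap between matches or with the glucocorticoid element. At least 3 matches occurred in 7.099% of all windows and at least 6 in 0.225%. At least 1 match was present in 6 of the 8 genes and in 53.62% of all genes with a window. The glucocorticoid element of Mt1 begins 94 bases before the RefSeq start.

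The sequences follow on the plus strand of GRCm38.p6, Mt1 at chr8:94178839-94179081 and Mt2 at chr8:94172368-94172617, with matches to either element in capitals. In Mt1 the longer run is the glucocorticoid element and the shorter the metal core, and its other 2 metal cores lie after the printed stretch. In Mt2 every run is a metal core, with 1 more after the printed stretch.
Mt1: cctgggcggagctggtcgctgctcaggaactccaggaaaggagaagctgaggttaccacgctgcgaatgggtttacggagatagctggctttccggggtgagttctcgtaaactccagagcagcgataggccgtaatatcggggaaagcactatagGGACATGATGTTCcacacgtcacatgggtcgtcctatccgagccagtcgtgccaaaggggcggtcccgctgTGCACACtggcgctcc
Mt2: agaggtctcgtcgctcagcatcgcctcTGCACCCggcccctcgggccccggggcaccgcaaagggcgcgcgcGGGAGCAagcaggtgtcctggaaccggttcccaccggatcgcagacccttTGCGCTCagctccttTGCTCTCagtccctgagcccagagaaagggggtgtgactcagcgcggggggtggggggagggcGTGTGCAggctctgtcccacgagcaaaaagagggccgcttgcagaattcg

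The printed Mt2 stretch lies within an exon of Gm45774, a gene on the opposite strand that also overlaps 432 of the 588 exon bases of Mt2. Gm45774 had 349 and 170 counts in the wild type and 511 and 91 in the knockout. The library kit keeps strand, but the strand setting of the authors' counting was not given in the sources used here, so reads of Mt2 and Gm45774 may not have been told apart. At 605 to 6038 counts, Mt2 exceeded Gm45774 in every library.

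Other metal response genes had smaller ranges than the metallothioneins. Slc30a1, a zinc exporter gene driven by the same metal-sensing factor, stood at 8.52 and 8.65 CPM in the wild type and 10.6 and 8.83 CPM in the knockout (log2 fold change 0.18, SE 0.18). Mtf1, which encodes that factor, stood at 2.56 and 2.25 CPM against 3.66 and 2.86 CPM (log2 fold change 0.44, SE 0.27). The zinc transporter genes Slc39a14 and Slc30a2 were at -0.46 and 0.43, and Mt3 and Mt4 had 0 counts in all libraries. Of 6 tested genes 4 were higher and 2 lower, with a median of 0.22. The genotypes did not overlap for any of the 6, 4 higher and 2 lower in the knockout, against 33.5% of tested genes. Calls numbered 0 in edgeR (1, Slc39a14, with an unadjusted p below 0.05), 0 in DESeq2 and 0 in limma-voom.

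**Figure D2:**
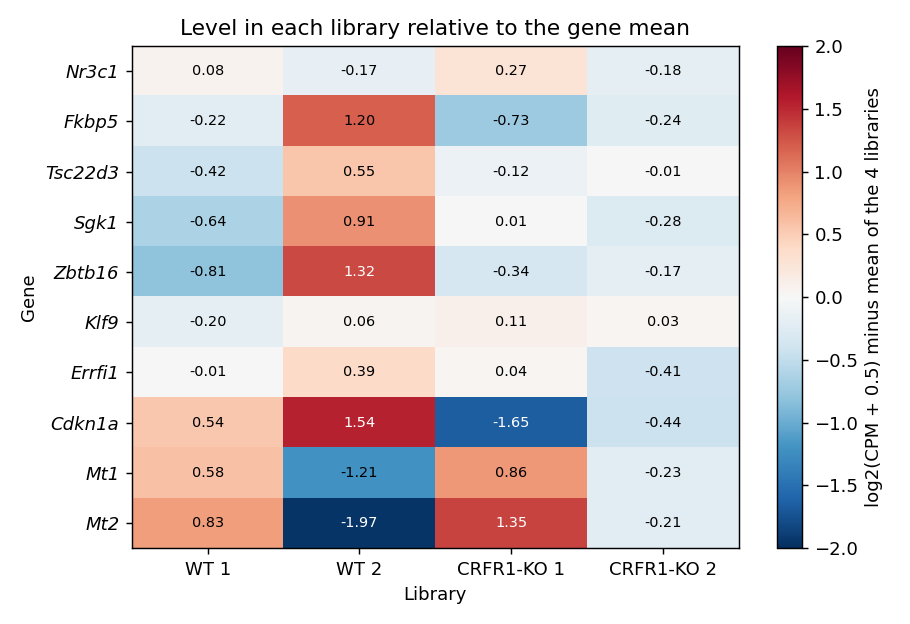
Level of each gene in each library as log2(CPM + 0.5) minus the mean of its 4 libraries, with red above and blue below that mean. In the WT 2 column Fkbp5, Sgk1, Zbtb16 and Cdkn1a are 0.91 to 1.54 above their means, and Mt1 and Mt2 are 1.21 and 1.97 below theirs.

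WT 2 was the library at the extreme for most of these genes. It was the highest library for 6 of the 10 genes, against 27.5% of tested genes, and the lowest for Mt1 and Mt2, against 28.1%. By more than 1.5-fold over every other library it was highest for 4 (Fkbp5, Sgk1, Zbtb16 and Cdkn1a, against 3.87% of tested genes) and lowest for 2 (against 6.37%). These shares describe genes that had been picked with the data known. Among the clock genes, which glucocorticoids are known to reset, WT 2 was highest for 9 of 15 and above WT 1 for 13 of 15, against 48.4% of tested genes above WT 1. The clock output gene Dbp stood at 1.71 and 2.55 CPM in the wild type and 1.18 and 1.76 CPM in CRFR1-KO, and the clock repressor gene Nr1d1 at 7.11 and 12.3 against 6.03 and 7.23 CPM. The time of tissue collection was not given in the sources used here, and a part of the clock in the levels above was not tested.

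Clock genes lay on both sides of 0 between genotypes. Of its 15 genes 9 were lower and 6 higher, with a median log2 fold change of -0.11 that became 0.15 without WT 2, with 11 higher, and 0.06 in limma-voom, with 8 higher. Calls numbered 0 in edgeR (1 with an unadjusted p below 0.05), 0 in DESeq2 and 0 in limma-voom. The gene with the smallest p was the repressor gene Bhlhe40, at 5.08 and 6.56 CPM in the wild type and 2.48 and 3.41 CPM in the knockout (log2 fold change -0.98, SE 0.26), followed by Nr1d1 (-0.55) and the repressor gene Cry1 (-0.53).

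**Figure D3:**
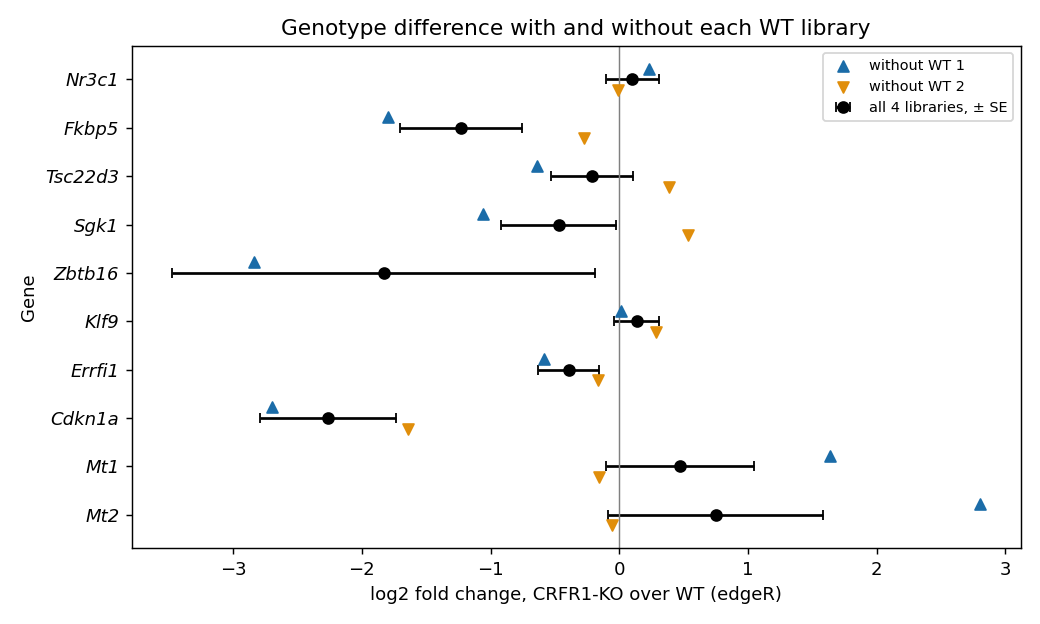
Log2 fold change of CRFR1-KO over WT for each gene from edgeR, with all 4 libraries (black, bars ± SE), without WT 1 (blue) and without WT 2 (orange). Tsc22d3, Sgk1, Mt1, Mt2 and Nr3c1 change sign between the fits without WT 1 and without WT 2, while Fkbp5, Errfi1 and Cdkn1a are below 0 in both. No value is drawn for Zbtb16 without WT 2, since the remaining WT library has 0 counts.

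Beyond the 10 genes, 29 other genes raised by glucocorticoids in various tissues were listed, and 25 passed the filter. Of these, 23 were lower and 2 higher in CRFR1-KO, with a median log2 fold change of -0.51 against -0.006 over all genes, of which 50.8% were lower. The count lower was 22 of 25 without WT 1 and 24 of 26 without WT 2, with medians of -0.61 and -0.37. It was 21 of 26 without CRFR1-KO 1 and 22 of 26 without CRFR1-KO 2, with medians of -0.66 and -0.53. Both CRFR1-KO libraries lay below both WT libraries for 11 of the 25, against 16.9% of tested genes. No gene of the list was called by edgeR (0 of 25) or limma-voom (0). In edgeR 8 of the 25 had an unadjusted p under 0.05, against 4.86% of tested genes. DESeq2, which gave a fold change for 27 genes of the list, called 4 lower, against 0.375% of genes called. The list was drawn up with earlier results of these data known, Glul among them, so its direction is no independent evidence. The fibroblast, macrophage and duct marker lists were lower in the same libraries, as given above.

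Rasd1, a dexamethasone-induced Ras-like gene, had 105 and 180 counts in the wild type and 9 and 18 in the knockout (log2 fold change -3.25, SE 0.60; DESeq2 adjusted p = 0.00184, edgeR adjusted p = 0.533). Glul, encoding glutamine synthetase, stood at 11.1 and 16.8 CPM in the wild type and 6.13 and 5.42 CPM in the knockout (log2 fold change -1.27, SE 0.24; DESeq2 adjusted p = 0.00411, edgeR adjusted p = 0.533). Ddit4, an inhibitor of mTORC1, stood at 10.8 and 12.8 CPM against 3.87 and 6.57 CPM (log2 fold change -1.17, SE 0.27; DESeq2 adjusted p = 0.044, edgeR adjusted p = 0.718). The fourth gene, the repressor Bcl6, and Lcn2 were named after their values were seen. Its levels were 1.20 and 4.66 CPM in the wild type and 0.512 and 0.550 CPM in the knockout (log2 fold change -2.46, SE 0.64; DESeq2 adjusted p = 0.035, edgeR adjusted p = 0.801). Without WT 1 edgeR called Bcl6 and Glul (adjusted p = 0.0206 and 0.0271), and without WT 2 it called Lcn2 (0.000525, against 0.43% of genes called), an inflammation-linked gene with 1502 counts in WT 1, 84 in WT 2 and 31 and 16 in the knockout.

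Per1 and Dusp1, also in that list, had overlapping genotypes. Per1, a clock gene with glucocorticoid elements, stood at 2.75 and 9.27 CPM in the wild type and 3.90 and 2.55 CPM in the knockout, again with WT 2 alone high (log2 fold change -0.89, SE 0.53). Dusp1, a phosphatase that shuts off MAP kinases, stood at 1.66 and 1.85 CPM in the wild type and 1.74 and 1.51 CPM in the knockout (log2 fold change -0.11, SE 0.33). WT 2 was more than 1.5-fold above every other library for 6 of the 25 genes, against 3.87% of tested genes.

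**Figure D4:**
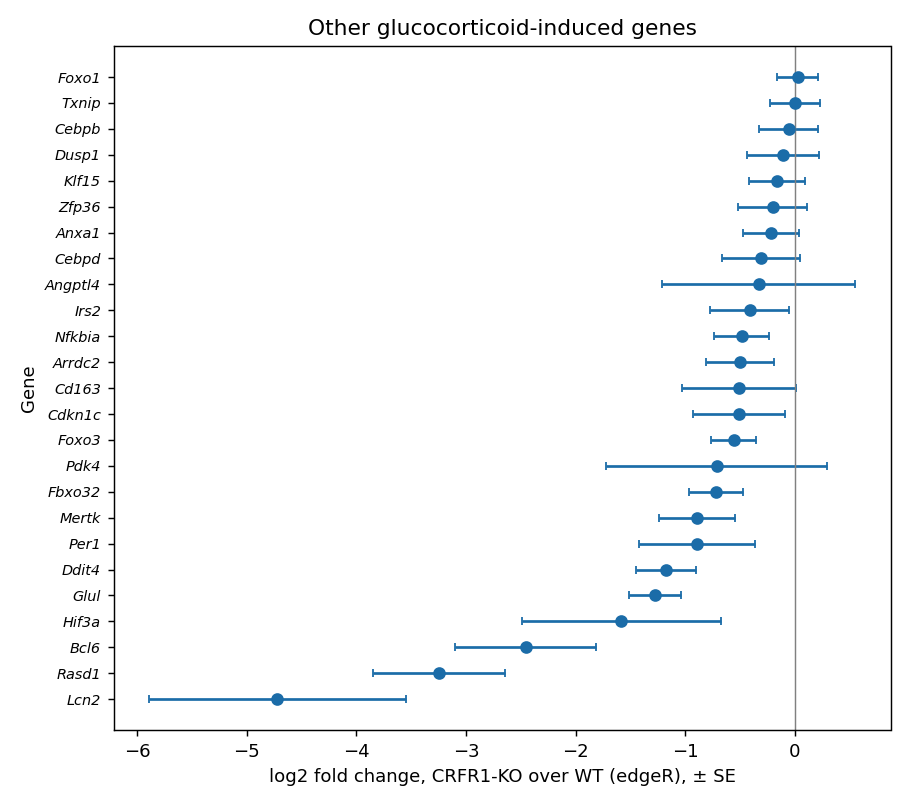
Log2 fold change of CRFR1-KO over WT with its SE from edgeR for the 25 tested genes of the list of other glucocorticoid-induced genes, ordered by value. Of the points, 23 lie below 0, and Foxo1 (0.03) and Txnip (0.002) lie above it.

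Of 18 listed inflammatory genes that glucocorticoids repress, 4 passed the filter, and Sele, Csf2 and Ifng had 0 counts in all libraries. Icam1 and Vcam1, which encode endothelial adhesion molecules, had log2 fold changes of -0.64 (SE 0.52) and -0.44 (SE 0.47), and the gelatinase gene Mmp9 had one of 0.36 (SE 0.88). Icam1 had 157 and 89 counts in the wild type and 36 and 99 in the knockout, so the genotypes overlapped. Of the 4, 3 were lower and 1 higher, with a median of -0.37, and calls numbered 0 in edgeR (0 with an unadjusted p below 0.05), 0 in DESeq2 and 0 in limma-voom. The median over the genes then tested was -0.06 without WT 1 (5 genes), -0.80 without WT 2 (8), -0.11 without CRFR1-KO 1 (9), -1.40 without CRFR1-KO 2 (8) and -1.55 in DESeq2 (15).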

How the data were processed

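RNA-seq of 4 libraries was measured from oligo(dT)-purified RNA with a kit that marks strand by dUTP, per the labels' protocols. The deposited table gave whole-number counts per Ensembl gene without normalization, per the file headers. FastQC, DESeq2 and edgeR are named in the submitters' processing notes without a role. The aligner, counting program, strand setting and genome build were not given in the sources used here. Columns were tied to libraries by the library names in the labels. A count of 4 was over-frequent (913 genes in WT 1, against 349 with 3 and 242 with 5), so it is open what 1 unit of the deposited counts represents, and limits of 3 counts cover counting error only.

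Genotypes were compared with the quasi-likelihood F test of edgeR 4.0.16 in R 4.3.3, two-sided, on genotype alone. Library sizes were scaled by TMM, low genes were removed by filterByExpr, and Benjamini-Hochberg adjustment ran over 15131 genes, with a threshold of 0.05. SEs were derived from the F statistic. The alternatives comprised DESeq2 1.42.0, limma-voom (limma 3.58.1), other scalings and filters, a replicate block, and each library left out. In simulated CRFR1-KO and WT libraries (15131 genes), edgeR recovered 28.6% of genes given a 2-fold change and 72.8% given a 4-fold change. It called 0.0324% of the rest. Each simulated gene was given the spread typical of its level, so recovery of genes with a wider spread was not measured. The genes and lists were chosen with earlier results of these data known. Outside the 10 genes, the text names fixed genes, genes past the threshold and up to 3 per list with the smallest p. Likeness candidates averaged at least 5 CPM. Positions and exon lengths are from GENCODE M21 (GRCm38), and promoter windows from RefSeq (GRCm38.p6).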

Additional observations from a re-analysis of the deposited data

How the results depend on the processing

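Across all genes 4 passed in edgeR, 7 with the replicate block, 60 in DESeq2, 0 in limma-voom and 0 to 69 when single libraries were left out (40 without WT 1, 69 without WT 2). Same-numbered libraries did not deviate together over all genes (r = -0.0747). The labels give them a shared number, and whether they also share a batch or a pairing was not tested. With the block Cdkn1a passed (log2 fold change -2.35, edgeR adjusted p = 0.0491). Genes with the CRFR1-KO libraries below the WT libraries numbered 2 to 6 of 10 with single libraries left out (6 without WT 1, 4 without CRFR1-KO 1). The matching shares over all genes were not computed. The 16.9% given above is for all 4 libraries, and groups separate more easily with a library fewer, so these counts cannot be set against it. Of the log2 fold changes of the 10 genes under all alternatives, 95 kept direction and call, 3 crossed the threshold and 11 changed sign, for which the cause was not tested. Over single libraries left out, Nr3c1 lay between -0.14 and 0.32 (-0.056 on library totals), Tsc22d3 between -0.64 and 0.39, Sgk1 between -1.06 and 0.53, Mt1 between -0.18 and 1.64 and Mt2 between -0.24 and 2.80. Zbtb16 was at 0.003 with the block and 1.72 in limma-voom, and has no fold without WT 2. Of the other induced genes DESeq2 called 4, and 0 to 2 were called with single libraries left out. The stricter metal core, TGCACNC or TGCGCNC, added after seeing the data, was found in 3 of 8 genes, against 6, and in 28.23% of all genes with a window. Fits without a library assume that the lone library varies like the others.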

Other observations

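The genes whose profile over the 4 libraries was most like that of Fkbp5 were taken from 5734 candidates averaging at least 5 CPM, by the root mean square difference of centred log2(CPM + 0.5). Slc7a5, a large neutral amino acid transporter gene, was closest (0.0831), at 32.2 and 74.6 CPM in WT and 19.8 and 29.2 CPM in CRFR1-KO. Lrrc75b (0.166), Cth (0.185), which encodes the cystathionine gamma-lyase of cysteine synthesis, Ndrg2 (0.187) and the ribosomal protein gene Rpl7a (0.200) followed. Of the glucocorticoid targets, Zbtb16 came nearest to Fkbp5 (0.358), then Sgk1 (0.448) and Tsc22d3 (0.471), and Mt2 was farthest (1.96). Zbtb16, at 0 to 1.68 CPM, lay below the 5 CPM asked of candidates, so the added 0.5 narrowed its profile. It was lowest in WT 1, whereas Fkbp5 was lowest in CRFR1-KO 1. The share of all genes lying as near to Fkbp5 as these targets was not computed.

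For Mt1, the same measure gave Khnyn (0.273), Orc4 (0.385), an origin recognition complex gene, Itih2 (0.391), Nt5c3 (0.402) and Natd1 (0.430). Mt2 lay 0.468 from Mt1, since it had the same order of libraries with a wider range. Each profile has 4 points that share library and depth, so these likenesses describe these libraries alone.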
